A study of Mus musculus with 4 samples.

Results

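The genes described here are 9 of the 32285 mouse genes in the files: Rp1, Lgi1, Mme, Pm20d1, P2rx6, Aqp4, Slc22a3, Pdzrn4 and Hs3st5. They were selected on measured values of these libraries, since their unique molecular identifiers (UMIs, 1 for each captured RNA molecule) were far fewer in cardiomyocyte nuclei of hearts with a homozygous Rbm20 mutation than in wild type. That contrast is therefore a description and not a finding. Beside it stand values outside that contrast, namely how the same genes stood in heterozygous and in gene-edited hearts, in nuclei of the corrected library with and without UMIs of the added ABE features, and in the other cell types of the heart. As the genes were chosen with earlier results of these data known, those values are descriptions too.

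Rbm20 encodes an RNA-binding protein that controls the splicing of long muscle transcripts, such as those of titin, the ryanodine receptor and calcium/calmodulin kinase II. Mutations in its arginine- and serine-rich domain move the protein out of the nucleus and cause dilated cardiomyopathy, with loss of normal splicing as one arm of the disease and cytoplasmic RNA granules as another. The measurement used here counts RNA per gene in nuclei and does not see which exons a transcript holds.

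RNA of single nuclei was measured in hearts of 6-month-old C57BL/6 mice, with 10x Genomics 3′ v3 chemistry. The 4 genotypes were WT (wild type), Rbm20_het (1 mutant Rbm20 allele), Rbm20_homo (both alleles mutant) and Rbm20_homo_corrected, in which the homozygous mutation had been corrected by gene editing, called the corrected library here. Each genotype had 1 library made from 3 pooled hearts, and the labels give neither the allele nor the editing agent. The labels speak of total cardiac nuclei, although their library protocol also mentions CD45+ immune cells.

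Replicate error is unknown with 1 library per genotype, and genotypes were compared without a test. Every interval in square brackets is an exact 95% interval and covers counting error only. Intervals of levels and ratios take UMIs as independent. The unit of level is CPM: a gene's UMIs per 1000000 UMIs that are neither mitochondrial nor from the ABE features, with all nuclei of 1 class and library added up. Where no UMI was counted, the limit used is 3 counts per library. Levels of different genes are not ranked against each other, because nuclear counts also depend on gene length.

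After filtering, the libraries held 8688 to 13167 nuclei with a median of 2366 to 3147 UMIs, and any pair of libraries shared 26 to 56 barcodes. Clusters named from marker genes gave ventricular cardiomyocyte-like nuclei in each library (3052 for WT, 2478 for Rbm20_het, 3028 for Rbm20_homo and 3186 for the corrected library), with 15713066 to 19868854 UMIs each. All 14 ventricular markers were detected in each library, and their summed level was 74041 CPM in WT nuclei, 67498 in Rbm20_het nuclei, 61328 in Rbm20_homo nuclei and 74252 in corrected nuclei. Rbm20 itself was at 4527, 4559, 3798 and 4667 CPM in that order, which does not check the labels since the mutation need not change the RNA level. Malat1, an abundant nuclear noncoding RNA, took 24.0% of the UMIs of Rbm20_homo cardiomyocyte-like nuclei and 14.4% to 15.3% in the other libraries. Since CPM is a share of all these UMIs, a larger Malat1 share lowers the CPM of the other genes in that library. Scaling without it is among the alternatives.

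The 9 genes lie on 8 chromosomes, and their products work in different places. Lgi1 and Pm20d1 encode secreted proteins. Mme, P2rx6, Aqp4 and Slc22a3 encode an enzyme, a channel subunit, a water channel and a transporter of the cell surface. Hs3st5 encodes a Golgi enzyme, Pdzrn4 an intracellular PDZ and RING finger protein, and Rp1 a microtubule-associated protein. Positions are those of GENCODE vM21 on GRCm38. All 9 are protein-coding and their gene bodies ran from 15.9 kb (P2rx6) to 410 kb (Rp1), with a median of 88.7 kb against 12.3 kb over 32158 genes of the files that had a length in the annotation. Several overlap an annotated gene on the other strand, for example P2rx6 with Slc7a4 and Slc22a3 with Plg. On the same strand, Rp1 overlaps Gm6101 and Gm37483, and Lgi1 overlaps AC116871.2. Whether the counting used strand is not given in the sources used here.

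Upstream sequence was searched for short motifs of muscle and general promoter factors, to see whether genes that stood low together hold the same letters. RefSeq promoter windows (GRCm38.p6) matched 6 of the 9 genes, with 9 transcription starts for Lgi1, Mme, P2rx6, Slc22a3, Pdzrn4 and Hs3st5. Only the 250 bases before each start were read, on both strands. The hexamer GGAATG, the core of the M-CAT element bound by TEAD factors in muscle promoters, was in 4 of 9 windows and in 12.6% of all 32851 windows of that length. Of these, 3 lie outside annotated exons and are shown, 60 bases each, 5′ to 3′ on the gene's strand, with the hexamer or its reverse complement in capitals.
P2rx6, chr16:17561686-17561745, plus strand: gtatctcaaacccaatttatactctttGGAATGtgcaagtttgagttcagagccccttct
Slc22a3, chr17:12507761-12507820, minus strand: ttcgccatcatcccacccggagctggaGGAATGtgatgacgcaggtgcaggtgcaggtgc
Hs3st5, chr10:36506649-36506708, plus strand: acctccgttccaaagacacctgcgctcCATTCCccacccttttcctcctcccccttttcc
The motif starts 172 bases before the start in P2rx6, 89 in Slc22a3 and 131 in Hs3st5. Whether the motif goes with the levels of these genes was not tested.
The other motifs searched were TATAAA (1 of 9 windows, 12.4% of all windows), GATAA (1 of 9, 22.6%), CANNTG, the E-box (5 of 9, 66.2%), AGGTCA (0 of 9, 14.0%), and the MEF2 and CArG motifs (0 of 9 each, 2.92% and 1.47%). CANNTG can overlap the others in letters. A match is a description of the sequence only.

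In cardiomyocyte-like nuclei all 9 genes stood lower in Rbm20_homo than in WT, as the choice required, by 5.36-fold for Pdzrn4 and more for the others. Lgi1 was 107-fold lower on 3 UMIs, and the fold of Aqp4, with 0 UMIs, is only bounded from below. Hs3st5 was 5.88-fold lower, Slc22a3 16.1-fold, Rp1 23.1-fold, P2rx6 30.2-fold and Mme 57.0-fold. Of 13154 genes with at least 50 UMIs over these libraries, 9.19% were lower by 2-fold or more. The median log2 ratio was -4.81 for the 9 genes and -0.19 for all genes tested. In the other libraries they parted. Rp1, Mme, Pm20d1, P2rx6 and Aqp4 were at 16.8% to 34.5% of WT in both Rbm20_het and corrected nuclei. Slc22a3, Pdzrn4 and Hs3st5 were at 61.8% of WT or more in both, and Lgi1 was at 39.0% in Rbm20_het and 68.5% in corrected nuclei.

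**Figure D1:**
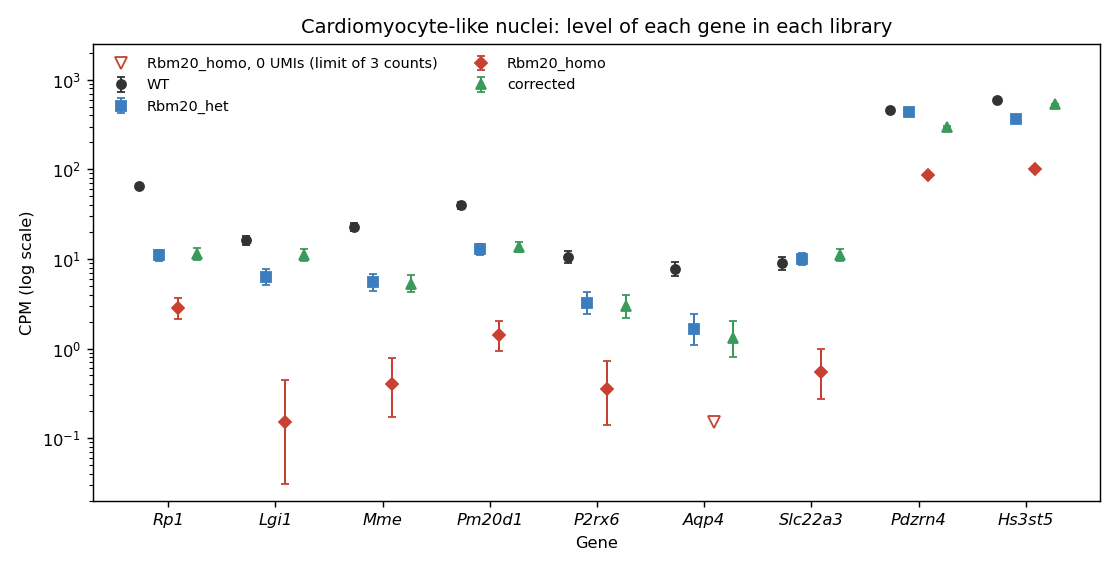
Level of each of the 9 genes (CPM, log scale) in ventricular cardiomyocyte-like nuclei of the 4 libraries, with exact 95% Poisson intervals, and the open triangle at the limit of 3 counts for Aqp4 in Rbm20_homo. The red symbols of Rbm20_homo are the lowest for each gene, and the squares of Rbm20_het and triangles of the corrected library lie close together for Rp1, Mme, Pm20d1, P2rx6 and Aqp4.

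Pm20d1 (ENSMUSG00000042251, chr1:131797381-131821473, plus strand) encodes a secreted enzyme that joins and splits fatty acids and amino acids to form N-acyl amino acids. Its RNA stood at 39.5 CPM in WT nuclei [36.5 to 42.7], 12.8 in Rbm20_het nuclei [11.1 to 14.7], 1.41 in Rbm20_homo nuclei [0.936 to 2.04] and 13.6 in corrected nuclei [11.9 to 15.5]. Those are 643, 201, 28 and 218 UMIs. WT and Rbm20_homo lay apart from each other and from the other two libraries, whose intervals overlapped, and the corrected to Rbm20_het ratio was 1.06 [0.875 to 1.30].

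Lgi1 (ENSMUSG00000067242, chr19:38264536-38312214, plus strand) encodes a secreted leucine-rich repeat protein best known from synapses, where it binds ADAM22. It stood at 16.2 CPM in WT nuclei [14.3 to 18.2], 6.30 in Rbm20_het nuclei [5.12 to 7.67], 0.151 in Rbm20_homo nuclei [0.0311 to 0.441] and 11.1 in corrected nuclei [9.49 to 12.8]. Only 3 UMIs in 2 nuclei were counted in Rbm20_homo, against 263 in WT, a 107-fold difference [36.2 to 522]. All 4 intervals were separate, and the corrected level was 1.75 times that of Rbm20_het [1.36 to 2.27].

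Mme (ENSMUSG00000027820, chr3:63241537-63386030, plus strand) encodes neprilysin, a metallopeptidase of the cell surface that degrades natriuretic and other peptides. It was at 23.0 CPM in WT nuclei [20.7 to 25.4], 5.47 in Rbm20_het nuclei [4.38 to 6.76], 0.403 in Rbm20_homo nuclei [0.174 to 0.793] and 5.31 in corrected nuclei [4.24 to 6.56]. The Rbm20_het and corrected levels, at 23.8% and 23.1% of WT, did not differ beyond counting error (ratio 0.970 [0.710 to 1.32]).

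P2rx6 (ENSMUSG00000022758, chr16:17561885-17577800, plus strand) encodes a subunit of the ATP-gated P2X cation channels. It was at 10.6 CPM in WT nuclei [9.10 to 12.3], 3.25 in Rbm20_het nuclei [2.42 to 4.27], 0.352 in Rbm20_homo nuclei [0.142 to 0.726] and 2.998 in corrected nuclei [2.21 to 3.97]. Aqp4 (ENSMUSG00000024411, chr18:15389496-15410982, minus strand) encodes a water channel, and it stood at 7.68 CPM in WT [6.39 to 9.15], 1.65 in Rbm20_het [1.08 to 2.42] and 1.31 in the corrected library [0.812 to 2.005]. No Aqp4 UMI was counted among 3028 Rbm20_homo nuclei. With the limit of 3 counts in place of 0, Aqp4 was 50.8-fold lower than WT, and the exact interval starts at 40.7-fold. For these genes, too, Rbm20_het and corrected intervals overlapped, and both lay below the WT interval.

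Slc22a3 (ENSMUSG00000023828, chr17:12418960-12507704, minus strand) encodes an organic cation transporter that takes up monoamines outside neurons. It was at 8.90 CPM in WT nuclei [7.51 to 10.5], 9.99 in Rbm20_het nuclei [8.49 to 11.7], 0.554 in Rbm20_homo nuclei [0.276 to 0.991] and 11.1 in corrected nuclei [9.54 to 12.9]. The 3 higher libraries overlapped, with ratios to WT of 1.12 in Rbm20_het [0.890 to 1.42] and 1.25 in the corrected library [0.997 to 1.57], and Rbm20_homo stood alone at 6.22% of WT.

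Pdzrn4 (ENSMUSG00000036218, chr15:92396881-92771819, plus strand) encodes a relative of the LNX ubiquitin ligases. It was at 461 CPM in WT nuclei [450 to 471], 441 in Rbm20_het nuclei [430 to 451], 86.0 in Rbm20_homo nuclei [82.0 to 90.2] and 295 in corrected nuclei [287 to 304]. Here the corrected library was the lower of the middle pair, at 64.0% of WT against 95.6% in Rbm20_het. In Rbm20_homo 1 nucleus held 105 of the 1709 Pdzrn4 UMIs, and the next highest held 15. Without that nucleus the level was 80.8 CPM, 5.70-fold below WT.

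Hs3st5 (ENSMUSG00000044499, chr10:36506814-36834397, plus strand) encodes a sulfotransferase that adds 3-O-sulfate to heparan sulfate chains. It was at 586 CPM in WT nuclei [574 to 598], 362 in Rbm20_het nuclei [353 to 372], 99.7 in Rbm20_homo nuclei [95.3 to 104] and 529 in corrected nuclei [518 to 540]. The order of the middle pair was the reverse of that of Pdzrn4, since the corrected library reached 90.2% of WT and Rbm20_het 61.8%.

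Rp1 (ENSMUSG00000025900, chr1:3999557-4409241, minus strand) encodes a doublecortin-domain protein of the photoreceptor axoneme, mutated in a form of retinitis pigmentosa. It was at 65.2 CPM in WT nuclei [61.3 to 69.2], 10.9 in Rbm20_het nuclei [9.37 to 12.7], 2.82 in Rbm20_homo nuclei [2.13 to 3.66] and 11.4 in corrected nuclei [9.78 to 13.1]. Rbm20_het and corrected nuclei did not differ beyond counting error (ratio 1.04 [0.838 to 1.29]), and both were under 20% of WT, at 16.8% and 17.4%.

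The Rbm20_het library carries 1 mutant allele. In it, 6 of the 9 genes (Rp1, Lgi1, Mme, Pm20d1, P2rx6 and Aqp4) were lower than in WT by 2-fold or more, where 1.6% of 12840 genes tested were. The median log2 ratio of the 9 genes was -1.63, against -0.06 for all genes. This comparison shares the WT library with the one that chose the genes. Rp1 was 5.95-fold lower [5.06 to 7.03], Aqp4 4.64-fold [3.02 to 7.38] and Mme 4.196-fold [3.31 to 5.37], whereas Pdzrn4 was 1.05-fold lower [1.01 to 1.08].

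Corrected nuclei were set against WT and against Rbm20_homo. Of the 9 genes, 5 (Rp1, Mme, Pm20d1, P2rx6 and Aqp4) were still lower than WT by 2-fold or more, against 2.14% of 12885 genes, and the median log2 ratio was -1.54 against -0.06. All 9 were higher than in Rbm20_homo by 2-fold or more, from 3.43-fold for Pdzrn4 [3.24 to 3.63] to 73.2-fold for Lgi1 [24.6 to 358], where 5.68% of 13086 genes were. Aqp4 (21 UMIs against 0) had fewer than 50 UMIs in that comparison. With the limit of 3 counts in place of 0 it was 8.69-fold higher, and the exact interval starts at 6.46-fold. These comparisons share WT or Rbm20_homo with the contrast that chose the genes, so each gene's own values are given and no overlap is drawn from them.

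**Figure D2:**
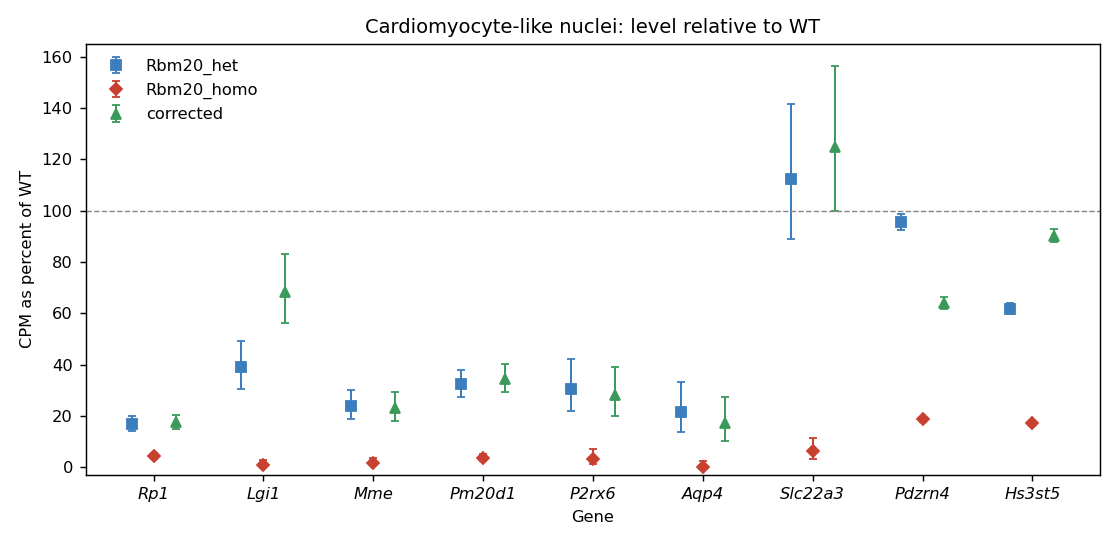
CPM of each gene as percent of WT in ventricular cardiomyocyte-like nuclei, with exact 95% intervals of the ratio, and the dashed line at the WT level. Rp1, Mme, Pm20d1, P2rx6 and Aqp4 lie at 16.8% to 34.5% in both Rbm20_het and the corrected library, Slc22a3 of these libraries above the line with intervals that cross it, and Pdzrn4 and Hs3st5 in opposite order.

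The genes also differed in how their UMIs were spread over nuclei. With each nucleus thinned to 2000 UMIs, 2408 to 2981 cardiomyocyte-like nuclei per library remained and 70 to 205 were too shallow. Hs3st5 was then seen in 59.7% of WT nuclei, 42.7% of nuclei with Rbm20_het, 14.6% with Rbm20_homo and 53.2% of corrected nuclei, and at full depth in 76.9%, 66.7%, 32.0% and 70.2%. In WT fibroblast-like nuclei thinned alike it was seen in 4.46%. Median depths before thinning were 4727.5 UMIs for WT cardiomyocyte-like and 2430 for WT fibroblast-like nuclei.

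Rp1 was seen in 9.28% of thinned WT cardiomyocyte-like nuclei, 1.495% of nuclei with Rbm20_het, 0.544% with Rbm20_homo and 1.71% of corrected nuclei, and in 0.967% of WT fibroblast-like nuclei. At full depth those cardiomyocyte shares were 16.5%, 3.55%, 0.925% and 2.70%. The mean number of Rp1 UMIs per Rp1-positive nucleus was 2.11 for WT, 1.95 for Rbm20_het, 2 for Rbm20_homo and 2.12 for the corrected library. The share of Rp1-positive nuclei was lower in the 3 libraries other than WT, while the full-depth count per positive nucleus stayed near the WT value. In Rbm20_homo that count rested on 28 nuclei, with up to 9 UMIs in 1 nucleus. Median depth of cardiomyocyte-like nuclei ran from 4456.5 UMIs (corrected) to 5810.5 (Rbm20_homo). Pm20d1 had a like share of positive WT nuclei at full depth, 16.4%, with 1.28 UMIs per positive nucleus.

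For Pdzrn4 the count per positive nucleus differed as well: 4.07 UMIs for WT, 4.59 for Rbm20_het, 2.63 for Rbm20_homo and 3.29 for the corrected library. Its thinned share of positive nuclei was 45.1%, 44.0%, 11.8% and 31.4% in the same order. Of the low-count genes, Slc22a3 was seen in 1.51%, 1.79%, 0.136% and 1.91% of thinned nuclei and Aqp4 in 1.26%, 0.457%, 0 (limit 0.102%) and 0.201%.

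Summed over the 9 genes, thinned WT nuclei held a mean of 2.48 UMIs, Rbm20_het 1.75, Rbm20_homo 0.385 and the corrected library 1.77. No UMI of any of the 9 was seen in 17.6% of WT nuclei [16.2 to 19.0], 29.6% of nuclei with Rbm20_het [27.8 to 31.5], 74.5% with Rbm20_homo [72.9 to 76.1] and 30.5% of corrected nuclei [28.9 to 32.2]. Pdzrn4 and Hs3st5 make up most of these sums. Without them, the other 7 genes were at 0 in 75.4%, 91.0%, 98.7% and 90.5% of nuclei.

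**Figure D3:**
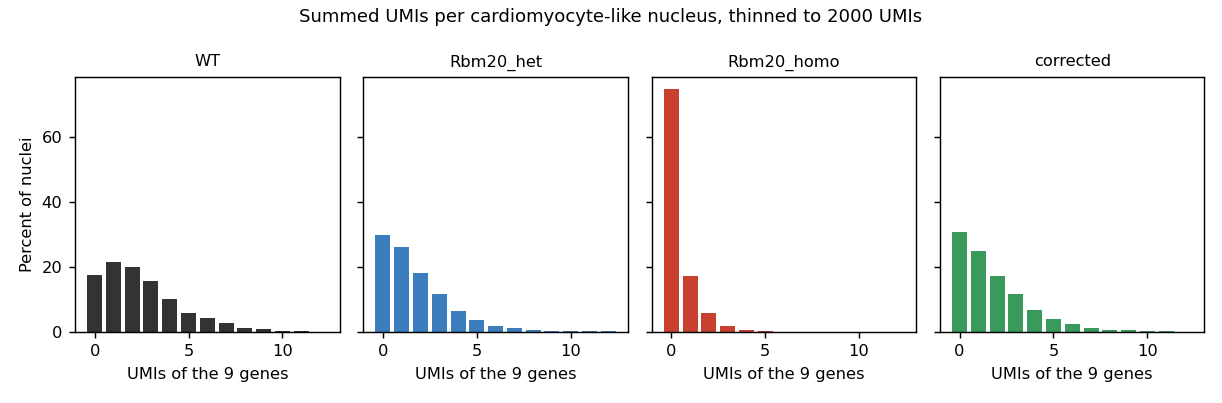
Summed UMIs of the 9 genes per ventricular cardiomyocyte-like nucleus thinned to 2000 UMIs (x axis, shown up to 12) against the percent of nuclei (y axis), in each library. The bar at 0 reaches 17.6% in WT and 29.6% in Rbm20_het, 74.5% in Rbm20_homo, and 30.5% in corrected nuclei.

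Clustering, which left the 9 genes and the ABE features out, split the cardiomyocyte-like nuclei mainly by genotype. Cluster 0 held 2850 WT, 2150 Rbm20_het, 2650 corrected and 36 Rbm20_homo nuclei, and cluster 3 held 53, 229, 397 and 2906 in the same order. Corrected nuclei in cluster 3 had lower levels than those in cluster 0: Pdzrn4 was at 153 against 321 CPM, Hs3st5 at 355 against 563, Rp1 at 2.55 against 13.1 (5 UMIs in cluster 3) and Lgi1 at 2.04 against 12.4 (4 UMIs). Rbm20_het nuclei in cluster 3 had Pdzrn4 at 251 against 463 CPM and Rp1 at 1.98 on 3 UMIs against 12.2. P2rx6 was there at 5.28 CPM on 8 UMIs against 3.04 on 42. Slc22a3 was at 10.6 CPM on 16 UMIs against 9.998 on 138. In the 53 WT nuclei of cluster 3 P2rx6 was at 18.3 CPM on 6 UMIs against 10.6. Whether P2rx6 or Slc22a3 differed between the clusters beyond counting error was not tested, so no order is read from them. The 53 WT nuclei also differed in other genes. Pdzrn4 and Hs3st5 were lower in them, with Pdzrn4 at 91.4 against 473 CPM and Hs3st5 at 369 against 594. The clusters were built on other genes of the same nuclei, so this is a description and no test.

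UMIs of the added features ABE_C and ABE_N were counted in the corrected library and in none of the other 3. What these features are is not given in the sources used here. Of its 3186 cardiomyocyte-like nuclei, 1237 (38.8%) had at least 1 such UMI, against 2.86% of fibroblast-like nuclei [2.34 to 3.45], 2.47% of endothelial-like nuclei [1.88 to 3.19] and 5.94% of endocardial-like nuclei [3.61 to 9.12], the highest of the other classes. Nuclei with an ABE UMI were deeper, with a median of 5285 UMIs against 3932. A nucleus without an ABE UMI may still hold the RNA below detection at this depth, and an ABE UMI does not show that a nucleus was edited.

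Among the 9 genes, 6 were higher in nuclei with an ABE UMI than in those without, with intervals above 1: Rp1, Lgi1, Mme, Pm20d1, P2rx6 and Hs3st5. How many of all genes tested had such an interval was not counted, so nothing is read from the number 6. Rp1 was at 17.7 against 5.86 CPM, a ratio of 3.01 [2.16 to 4.26]. P2rx6 was at 4.68 against 1.52 CPM on 35 and 13 UMIs, a ratio of 3.07 [1.59 to 6.33]. These 2 genes passed 2-fold, where 0.303% of 11228 genes tested were higher by that much, though P2rx6 had 48 UMIs in all and was below the 50 needed to be tested.

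Pm20d1 was at 18.5 against 9.37 CPM (ratio 1.97 [1.49 to 2.63]), Lgi1 at 14.9 against 7.73 (1.92 [1.40 to 2.65]) and Mme at 7.09 against 3.75 (1.89 [1.20 to 3.03]). Hs3st5 was at 644 against 428 CPM (1.51 [1.44 to 1.57]). WT nuclei had Lgi1 at 16.2 CPM and Hs3st5 at 586, the latter below the ABE-positive level. Rp1, Mme, Pm20d1 and P2rx6 in ABE-positive nuclei were below their WT levels of 65.2, 23.0, 39.5 and 10.6 CPM. Slc22a3 did not differ beyond counting error. Slc22a3 was at 11.4 against 10.9 CPM (1.04 [0.769 to 1.42]). Pdzrn4 was at 285 against 304 CPM, a ratio of 0.935 [0.883 to 0.991]. Like all ratio intervals here, that one takes UMIs as independent. Positive corrected nuclei held on average 3.29 UMIs of Pdzrn4, 3.79 of Hs3st5 and 2.12 of Rp1, so these intervals may be too narrow. The Pdzrn4 ratio was 0.994 with ABE_C alone [0.888 to 1.11] and 0.930 with ABE_N alone [0.853 to 1.01]. It was 0.920 with both [0.857 to 0.988] and 0.854 thinned to 1000 UMIs [0.745 to 0.977]. With nuclei thinned to 2000 UMIs, 30.8% with an ABE UMI [28.3 to 33.5] and 31.7% without [29.6 to 34.0] held Pdzrn4. Aqp4, with 10 and 11 UMIs, had a ratio of 1.04 [0.395 to 2.69], an interval too wide to place it with either set. The ratios were also taken by which feature was seen, on fewer UMIs. Mme had a ratio of 0.673 on 3 UMIs in the 226 nuclei with ABE_C UMIs alone [0.132 to 2.15]. With ABE_N alone (451 nuclei, 10 UMIs) it was 1.13 [0.493 to 2.35]. With both (560 nuclei, 40 UMIs) it was 2.73 [1.67 to 4.48]. These intervals overlapped, so no difference between the features is read from them. With ABE_C alone, Lgi1 (1.41 [0.715 to 2.59]) and P2rx6 (2.21 on 4 UMIs [0.524 to 7.15]) had intervals that included 1. Rp1, Pm20d1 and Hs3st5 kept intervals above 1 in each of these splits. Thinned to 1000 UMIs per nucleus, the intervals of Lgi1 [0.832 to 4.45] and P2rx6 [0.437 to 33.7] included 1 as well.

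The median log2 ratio of the 9 genes was 0.92, against 0.01 for all genes tested. Rbm20 had a ratio of 1.04 [1.02 to 1.05] and the summed ventricular markers 1.08. The 7 genes other than Pdzrn4 and Hs3st5 summed to 75.5 CPM with an ABE UMI and 40.4 without, a ratio of 1.87 [1.63 to 2.14]. Among nuclei with ABE UMIs the intervals of their sum overlapped across the number of ABE UMIs: it was 75.2 CPM with 1 such UMI [63.7 to 88.3], 80.4 with 2 [65.2 to 98.1], 66.7 with 3 to 4 [53.5 to 82.2] and 77.5 with 5 or more [67.8 to 88.2]. ABE-positive nuclei made up 41.6% of corrected nuclei in cluster 0 and 22.9% in cluster 3, and within cluster 0 alone the median log2 ratio of the 9 genes was 0.83. Nuclei of 1 library are not replicates of a condition.

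**Figure D4:**
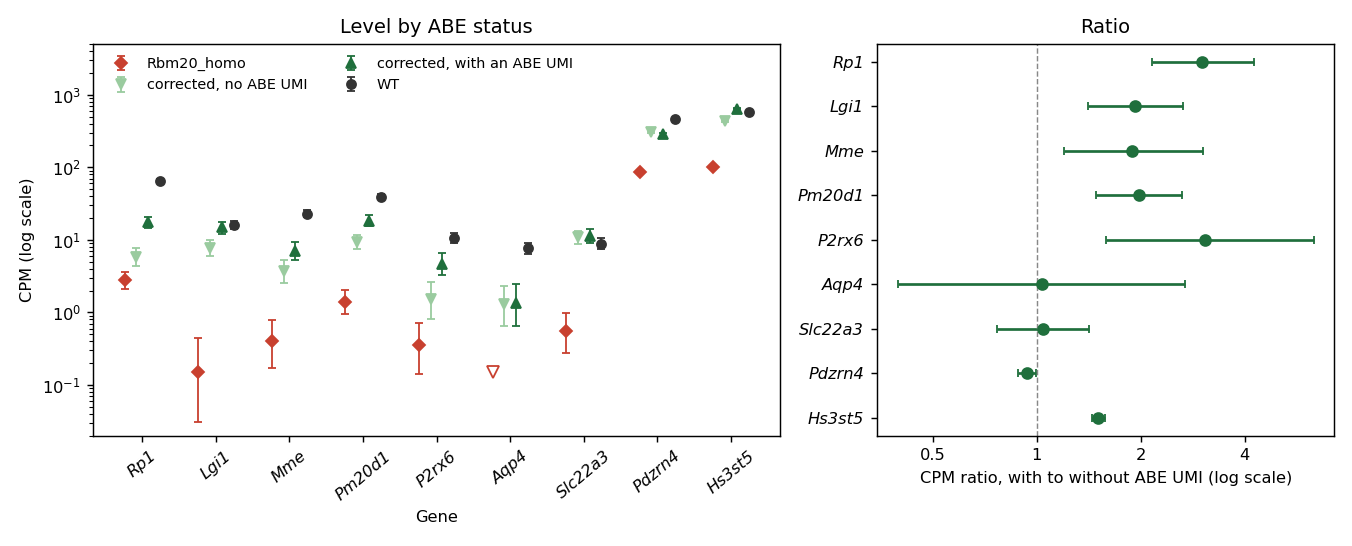
Left, CPM (log scale) of each gene in Rbm20_homo, in corrected cardiomyocyte-like nuclei without and with an ABE UMI, and in WT, with exact 95% Poisson intervals and an open triangle at the limit of 3 counts. Right, the ratio of nuclei with to those without an ABE UMI (log scale) with its exact 95% interval: Rp1 and P2rx6 lie near 3, Slc22a3, Aqp4 and Pdzrn4 near 1.

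Other nuclei of the heart also held these genes. Since free cardiomyocyte RNA can enter any droplet, the UMIs of each gene in a class were set against those that the class's own ventricular marker UMIs would bring along at the ratio seen in the cardiomyocyte-like nuclei of the same library. By that measure, over the 4 libraries, Mme in fibroblast-like nuclei was 94.6 times the free amount [90.2 to 99.1], Lgi1 in Schwann-like nuclei 28.9 times [18.5 to 43.0], P2rx6 in fibroblast-like nuclei 13.3 times [11.1 to 15.9], Slc22a3 in lymphatic endothelial-like nuclei 7.67 times on 9 UMIs [3.51 to 14.6], and Pdzrn4 in mesothelial-like nuclei 4.66 times [3.79 to 5.68]. Pm20d1 was at 1.05 times the free amount in fibroblast-like nuclei [0.747 to 1.42] and 0.811 in endothelial-like nuclei [0.495 to 1.25]. Hs3st5 was at 0.649 in fibroblast-like nuclei [0.600 to 0.699]. None of these levels stood above the free amount beyond counting error, and how far they are background was not tested. Mme was also above the free cardiomyocyte amount in other classes, for example 11.0 times in endocardial-like nuclei [8.31 to 14.3], and the part of free fibroblast RNA in that was not tested.

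Mme in fibroblast-like nuclei stood at 70.2 CPM in WT nuclei [63.0 to 77.9], 97.2 in Rbm20_het nuclei [89.8 to 105], 33.5 in Rbm20_homo nuclei [29.9 to 37.4] and 47.9 in corrected nuclei [43.4 to 52.6]. The Rbm20_homo level was 2.09-fold below that of WT [1.79 to 2.45], where 3.28% of 12413 genes were lower by 2-fold or more in these nuclei. In cardiomyocyte-like nuclei the difference was 57.0-fold [28.7 to 133], and the intervals of the fold were separate. Unlike there, Rbm20_het fibroblast-like nuclei were the highest of the 4.

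The fibroblast-like nuclei of different libraries sat in different clusters. Cluster 4, with C7, Ltbp2 and Cilp among its 10 leading genes, held 2678 of 3060 Rbm20_homo nuclei and 43 of 1916 WT nuclei, while cluster 1 held 1330 WT and 305 Rbm20_homo nuclei. Within cluster 1 Mme was at 80.4 CPM in WT [71.0 to 90.8] and 94.9 in Rbm20_homo [75.5 to 118], which overlap. In cluster 4 it was at 54.4 CPM in WT on 7 UMIs [21.9 to 112], 39.5 for Rbm20_het, 27.2 for Rbm20_homo [23.8 to 31.0] and 14.1 for corrected nuclei, where the WT and Rbm20_homo intervals overlap. Rbm20_homo was thus not lower than WT within cluster 1. Cluster 7, with 7 Mme UMIs in Rbm20_homo, had 50.6 CPM in WT and 29.6 in Rbm20_homo, with overlapping intervals.

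P2rx6 in fibroblast-like nuclei was at 9.02 CPM in WT nuclei [6.58 to 12.1], 4.50 in Rbm20_het nuclei [3.04 to 6.42], 1.17 in Rbm20_homo nuclei [0.582 to 2.09] and 4.65 in corrected nuclei [3.34 to 6.31]. As in cardiomyocyte-like nuclei, WT was highest, Rbm20_homo lowest, and the intervals of Rbm20_het and the corrected library overlapped. Within cluster 1 the values were 12.3 CPM in WT, 4.35 in Rbm20_het nuclei, 3.47 in Rbm20_homo nuclei (3 UMIs [0.716 to 10.1]) and, in corrected nuclei, 4.98.

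Lgi1 in Schwann-like nuclei rested on 24 UMIs: 7 in 26 WT nuclei (59.2 CPM [23.8 to 122]), 11 in 45 Rbm20_het nuclei (46.5 [23.2 to 83.3]), 6 in 60 corrected nuclei (38.4 [14.1 to 83.5]) and none in 38 Rbm20_homo nuclei. With the limit of 3 counts in place of 0, Rbm20_homo was 3.31-fold lower than WT, and the exact interval starts at 2.05-fold. The UMIs of these 2 libraries are below the 50 needed to be tested. Pdzrn4 in mesothelial-like nuclei was at 169 CPM in WT nuclei [100.2 to 267], 101 in Rbm20_het nuclei [50.3 to 180], 125 in Rbm20_homo nuclei [88.5 to 172] and 261 in corrected nuclei [179 to 368]. These 25 to 81 nuclei per library gave a Rbm20_homo to WT ratio of 0.740 [0.412 to 1.38], an interval that lies above the cardiomyocyte ratio of 0.187 [0.177 to 0.197].

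**Figure D5:**
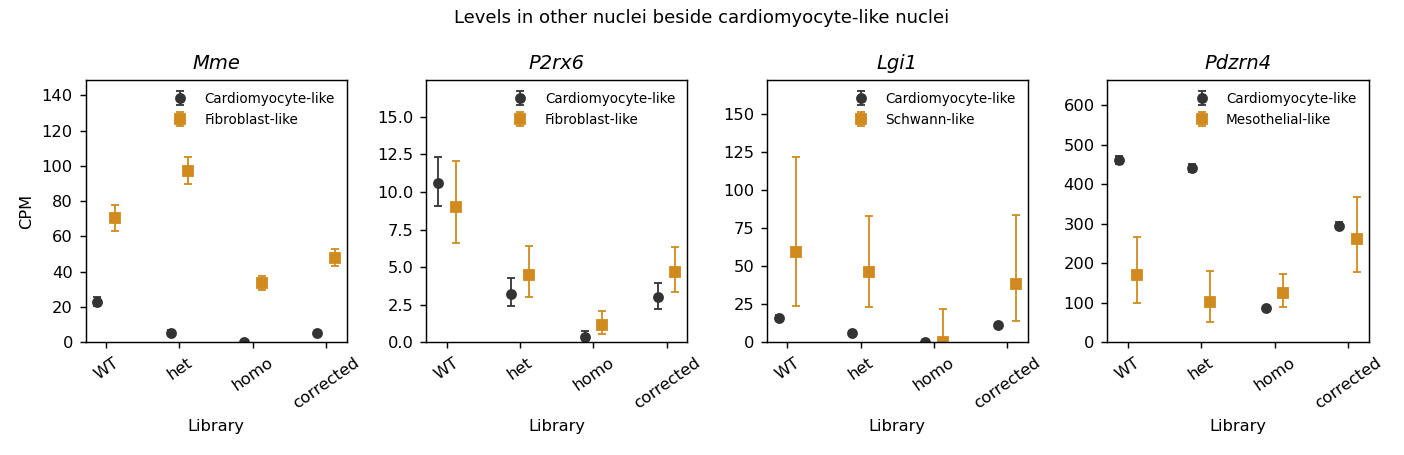
CPM of Mme and P2rx6 in fibroblast-like, Lgi1 in Schwann-like and Pdzrn4 in mesothelial-like nuclei (squares) beside cardiomyocyte-like nuclei (circles) in the 4 libraries, with exact 95% Poisson intervals. Mme stands higher in fibroblast-like nuclei in each library, and Pdzrn4 in mesothelial-like nuclei of Rbm20_homo stays at 125 CPM while it is at 86.0 CPM in cardiomyocyte-like nuclei.

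Markers of other cell types in cardiomyocyte-like nuclei moved with genotype in part. Fibroblast markers (9 genes) summed to 185 CPM in WT nuclei, 240 in Rbm20_het nuclei, 348 in Rbm20_homo nuclei and 254 in corrected nuclei, and pericyte markers (7 genes) to 369, 211, 110 and 325. Of 8 fibroblast markers with at least 50 UMIs, 4 were higher by 2-fold or more in Rbm20_homo than in WT and none lower, whereas of 6 such pericyte markers 1 was lower and none higher. Atrial markers (7 genes, 1 of them at 0 in all libraries) summed to 64.6, 104, 1097 and 99.8 CPM in the same order, with 1 higher and 1 lower of 4 tested and a median log2 ratio of 0.45, so few genes carry that sum. Smooth muscle markers (7 genes) summed to 541, 1212, 827 and 1030.0 CPM, with 1 lower of 4 tested, and adipocyte markers (5 genes) to 58.5, 128, 171 and 137, with 1 tested and higher. Schwann markers were at 19.3, 18.3, 11.98 and 17.3 CPM and mesothelial markers at 3.87, 2.99, 4.23 and 3.12. Their part in the levels above was not tested.

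Relatives and partners of the 9 genes were counted as a list in cardiomyocyte-like nuclei, Rbm20_homo against WT. Of 67 listed, 28 had at least 50 UMIs in these libraries, 6 of them were lower and 2 higher by 2-fold or more, and their median log2 ratio was -0.34. Over all genes, 9.19% were lower and 6.18% higher by as much, with a median of -0.19. Calls close to 2-fold can change with the Malat1 share, for example those of Slc22a4 (2.02-fold lower) and P2rx5 (1.98 times WT). The families are given in turn.

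Among the organic cation and carnitine transporters, Slc22a5, the main carnitine importer, was at 119 CPM in WT and 98.8 in Rbm20_het, then 36.4 in Rbm20_homo and 61.4 in corrected nuclei. The Rbm20_homo level was 3.27-fold below WT [2.999 to 3.56]. Slc22a4 was 2.02-fold lower [1.79 to 2.28] and Slc22a23 1.86-fold lower [1.73 to 2.004]. Unlike Slc22a3, Slc22a5 in the corrected library was below its Rbm20_het level.

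All 3 PDZ and RING relatives of Pdzrn4 stood above WT in Rbm20_homo. Lnx1, a ubiquitin ligase, was at 51.6 CPM in WT and 120 in Rbm20_het, then 160 in Rbm20_homo and 125 in corrected nuclei. The Rbm20_homo level was 3.099 times that of WT [2.87 to 3.35]. Lnx2 was 2.92-fold higher [2.65 to 3.21]. Pdzrn3, a close relative of Pdzrn4, was at 347, 724, 531 and 601 CPM, so Rbm20_het was its highest library.

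The hydrolase family of Pm20d1 held 2 lower genes of 4 tested. Acy1, an aminoacylase, was at 11.5 CPM in WT and 3.47 in Rbm20_homo, 3.31-fold lower [2.50 to 4.42], and Pm20d2 at 11.1 and 6.29. The other lower gene, Acy3, was named after its value was seen (2.51-fold [1.39 to 4.68]), as was P2rx3 (2.50-fold lower [1.41 to 4.59]). By UMIs, Cndp2 (1.83-fold lower [1.45 to 2.32]) comes before Acy3, and P2rx7 (ratio 0.924 [0.612 to 1.40]) before P2rx3. Adam11, next after Adam22 by UMIs, was also named after its value was seen (5.14-fold lower [2.84 to 9.97]). Of the ATP-gated channel subunits, P2rx5 was 1.98 times its WT level in Rbm20_homo [1.71 to 2.30] and P2rx4 0.7996 times [0.731 to 0.875]. Adam22, the receptor of Lgi1, was at 87.1 CPM in WT nuclei, 95.7 in Rbm20_het nuclei, 70.1 in Rbm20_homo nuclei and 63.6 in corrected nuclei. Ece1, a peptidase related to Mme, was at 13.2 CPM in WT and 7.80 in Rbm20_homo, and Phex at 1.72 and 1.96.

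The heparan sulfate enzymes had no gene past 2-fold among the 5 tested. Hs2st1 was at 76.6 CPM in WT and 57.9 in Rbm20_homo, Ndst1 at 64.0 and 32.5, and Hs6st1 at 14.3 and 20.1. The other aquaporins tested, Aqp1 and Aqp11, had ratios of 1.08 [0.845 to 1.38] and 0.743 [0.434 to 1.27]. In the family of Rp1, Dcdc2b had a ratio of 0.792 [0.649 to 0.966] and Dclk1 0.976 [0.634 to 1.51].

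Genes of most similar pattern were sought among 8739 genes with at least 100 UMIs in WT, by the distance of their 3 log2 ratios to WT (Rbm20_het, Rbm20_homo and corrected) from the median of the 9 genes. The 6 nearest were Arhgap9, Sgo2a, Tnfrsf19, Rgs7, Cmtm8 and Pde11a, at distances of 0.845 to 1.01. Rgs7, a regulator of G protein signalling, was at 113 CPM in WT nuclei, 50.02 in Rbm20_het nuclei, 7.35 in Rbm20_homo nuclei and 41.5 in corrected nuclei. Sgo2a, which protects centromeric cohesin, was at 21.1, 10.5, 1.01 and 9.93 CPM. Pde11a, a cyclic nucleotide phosphodiesterase, was at 8.90, 1.72, 0.352 and 1.94 CPM.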

How the data were processed

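The authors deposited raw UMI counts per gene and barcode as whole numbers for each library, with no normalization, per the file headers, which name Cell Ranger 4.0.0. Cell Ranger 6.1.1 and Seurat 4 stand in the submitters' processing notes, with mm10 (GRCm38). Whether intronic reads were counted is not given in the sources used here. Each matrix has 32287 features, 2 of them the added ABE_C and ABE_N.

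Barcodes under 300 genes or over 5% mitochondrial UMIs were dropped. The highest Scrublet scores were removed at 0.8% per 1000 barcodes (scanpy 1.11.5). The rest were clustered without integration on 2000 variable genes, 30 components and 20 neighbours (Leiden, resolution 0.8), leaving out the 9 genes and the ABE features. Clusters took a name from at least 3 markers at 4-fold or more. Mixed or shallow clusters and those under 50 nuclei stayed unnamed. These naming thresholds were set after the data were seen.

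UMIs were summed per class and library. Levels have exact Poisson intervals, ratios exact conditional binomial and shares exact Clopper-Pearson intervals, at 95%. A gene counted as called past 2-fold with at least 50 UMIs over the libraries compared. The steps were tested on simulated counts. The 9 genes and all lists were chosen with earlier results of these data known. Genes named are those 9, up to 3 relatives per family by UMIs, the 6 of most similar pattern and Rbm20. Acy3, P2rx3 and Adam11 were named after their values were seen. Alternatives used median-of-ratios size factors, TMM (edgeR 4.0.16), totals without Malat1, no doublet removal, classes from marker shares, thinning and stricter filters.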

Additional observations from a re-analysis of the deposited data

Results flagged for a closer look

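For Mme, Pdzrn4 and Hs3st5, another cell type stood on the other side of WT from cardiomyocyte-like nuclei in the same comparison. Only cases with at least 50 UMIs in the other cell type are given. The share of all genes that stood so was not counted, and the difference between the cell types was not tested. Mme was at 0.238 of WT in Rbm20_het cardiomyocyte-like nuclei and at 1.38 times WT in Rbm20_het fibroblast-like nuclei [1.21 to 1.58]. Pdzrn4 was at 0.956 of WT in Rbm20_het cardiomyocyte-like nuclei, at 1.39 times in endothelial-like nuclei [1.04 to 1.87] and at 1.55 times in fibroblast-like nuclei [1.28 to 1.88]. In the corrected library Pdzrn4 was at 0.640 of WT in cardiomyocyte-like and 1.25 times WT in fibroblast-like nuclei [1.03 to 1.51]. Hs3st5 was at 0.902 of WT in corrected cardiomyocyte-like nuclei and 1.56 times in corrected fibroblast-like nuclei [1.28 to 1.91]. Over the 4 libraries Hs3st5 in fibroblast-like nuclei was 0.649 times the amount that free cardiomyocyte RNA would give, Pdzrn4 1.351 times there and 0.706 times in endothelial-like nuclei. Ventricular marker RNA in fibroblast-like nuclei was 6437 CPM in WT and 8245 CPM in the corrected library. The part of free RNA in these differences was not tested.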

How the results depend on the processing

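The median log2 ratios of the 9 genes kept their direction in every comparison and alternative run. Median-of-ratios scaling gave -4.62 for Rbm20_homo to WT and TMM -4.63, against -4.81 with totals. With each nucleus thinned to 1000 UMIs it was -3.80, and the median of the ABE split was 1.49 against 0.92. That thinned median includes Aqp4 on 2 and 1 UMIs, with a log2 ratio of 1.61 against 0.05 unthinned. It also includes P2rx6 on 4 and 2 UMIs. No stronger difference is therefore read from it, and the cause was not tested. Of the single-gene values, 288 moved by less than their counting error and 34 by more, none with a change of sign; most of the 34 were Pdzrn4 and Hs3st5, whose counting error is small. Classes from marker shares put 1 Aqp4 UMI into Rbm20_homo (log2 ratio -7.20 in place of the bound). At a fold of 4 the genes lower in Rbm20_homo numbered 237, higher 223, lower in Rbm20_het 21, lower in corrected than WT 23 and higher in corrected than Rbm20_homo 131. At a fold of 2 with at least 10 UMIs the counts were 2017, 1400, 734, 797 and 1385 in the same order. With at least 50 UMIs they were 1209, 813, 206, 276 and 743. Leaving out the shallow cardiomyocyte-like cluster and splitting within cluster 0 were chosen after seeing the data, and gave -4.85 for Rbm20_homo to WT and 0.83 for the ABE split. No paired analysis was possible because each genotype had 1 library.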

Other observations

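An unnamed cluster of 66 nuclei, with markers of atrial and ventricular cardiomyocytes and Cntn2, Cpne5 and Grip1 as its leading genes, held Rp1 at 80.2 CPM in WT (12 UMIs), 247 in Rbm20_het (11 UMIs), 21.2 in Rbm20_homo (4 UMIs) and 98.1 in the corrected library (8 UMIs). Cntn2 marks the fast-conducting fibres of the ventricle, and the cluster was left unnamed because it held markers of more than 1 type. In these nuclei Lgi1 was at 0 in each of the 4 libraries, which at these totals limits it only to the floor of 3 counts per library, and Pdzrn4 was at 93.5, 157, 106 and 539 CPM. The values rest on 7 to 27 nuclei per library and are given without comparison.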
